A study of Mus musculus with 4 samples.

Results

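The Zfp536 locus was examined in lists of chromatin interactions from 2 classes of inhibitory neuron of the mouse cortex. Members were all listed interactions with at least 1 anchor, by an overlap of 1 bp or more, in the window from 38 to 39 Mb on chromosome 7 (build mm9), in which Zfp536 lies at about 38.26 to 38.56 Mb. They numbered 51 of 15011 interactions, with 46 of 6733 in the VIP list and 5 of 8278 in the SST list. The window was chosen because earlier work on these lists found it richer in VIP, so its counts are a description and not a test.

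The series holds 4 samples, 2 from Sst-cre; Sun1 mice and 2 from Vip-cre; Sun1 mice, all on a C57BL/6 background, adult, with the cortex as tissue and no treatment named. In both genotypes Cre recombinase switches on a tagged Sun1, a protein of the nuclear envelope, so that tagged nuclei can be pulled out of the tissue (INTACT). The Sst driver marks somatostatin interneurons and the Vip driver marks interneurons with vasoactive intestinal peptide; a Cre driver also labels cells that used the driver gene earlier in life. The assay was HiChIP for H3K27ac, and 1 list per cell type was analysed here, so no value below has a spread between animals.

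H3K27ac is an acetylation of histone H3 found at active promoters and enhancers. HiChIP joins DNA ends that lie close together in the nucleus, then precipitates and sequences joined pieces that carry the mark on at least 1 side. Each listed interaction joins a pair of genomic intervals, called anchors. Zfp536 encodes a nuclear protein with C2H2 zinc fingers that is abundant in the brain and acts as a transcriptional repressor; it is known for holding back neuronal differentiation driven by retinoic acid. Somatostatin interneurons arise mainly in the medial and VIP interneurons in the caudal ganglionic eminence of the embryo.

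In the RefSeq promoter table (build GRCm38.p6) Zfp536 lies on the minus strand, so its 5′ end is the upper end of the interval, near 38.56 Mb in mm9, and coordinates below 38.26 Mb lie downstream of the gene. The 250 bases before its RefSeq start are shown because 1 of the lists has an anchor at that end of the gene. They are chr7:37769753-37770002 in GRCm38.p6, minus strand, a build whose coordinates cannot be set beside those of the anchors. Capitals mark the match to a searched motif.
Zfp536 promoter: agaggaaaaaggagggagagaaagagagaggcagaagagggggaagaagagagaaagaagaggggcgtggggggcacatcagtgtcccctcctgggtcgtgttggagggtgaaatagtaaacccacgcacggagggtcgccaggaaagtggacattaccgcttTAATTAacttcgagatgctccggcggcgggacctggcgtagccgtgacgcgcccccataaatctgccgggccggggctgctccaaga
This stretch had 58.8% G and C, against a median of 52.4% over the 32851 RefSeq promoters of the same length. On either strand it held 1 match to TAATTA, the core bound by many homeodomain proteins, which begins 87 bases before the start and occurs in 4.84% of those promoters. It held no match to the GC box GGGCGG (in 32.7% of promoters), the TATA box TATAAA (12.4%), the E-box CANNTG (66.2%), the AP-1 site TGANTCA (6.75%) or the cAMP response element TGACGTCA (1.55%). A match describes letters and does not show that a factor binds.

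The VIP list held 46 interactions at the locus, with a Poisson interval of 33.7 to 61.4, or 6.83 per 1000 of the list. The SST list held 5, with an interval of 1.62 to 11.7, or 0.604 per 1000. The ratio was 11.3 with a counting interval of 4.51 to 36.5, which ignores that the window was picked for its difference and that interactions share anchors. Over the genome, 25 of 242 windows of 1 Mb with 20 or more interactions (10.3%) had at most 10% of them from SST. When interactions were placed by their midpoint, the Zfp536 window was such a window with 46 VIP and 2 SST interactions. It stood 8th among 1160 windows by the difference per 1000, 6.59, at the same value as chromosome 8 from 16 to 17 Mb and after chromosome 17 from 25 to 26 Mb at 7.21. The number of VIP interactions reached 46 in 16 windows, this one included.

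**Figure D1:**
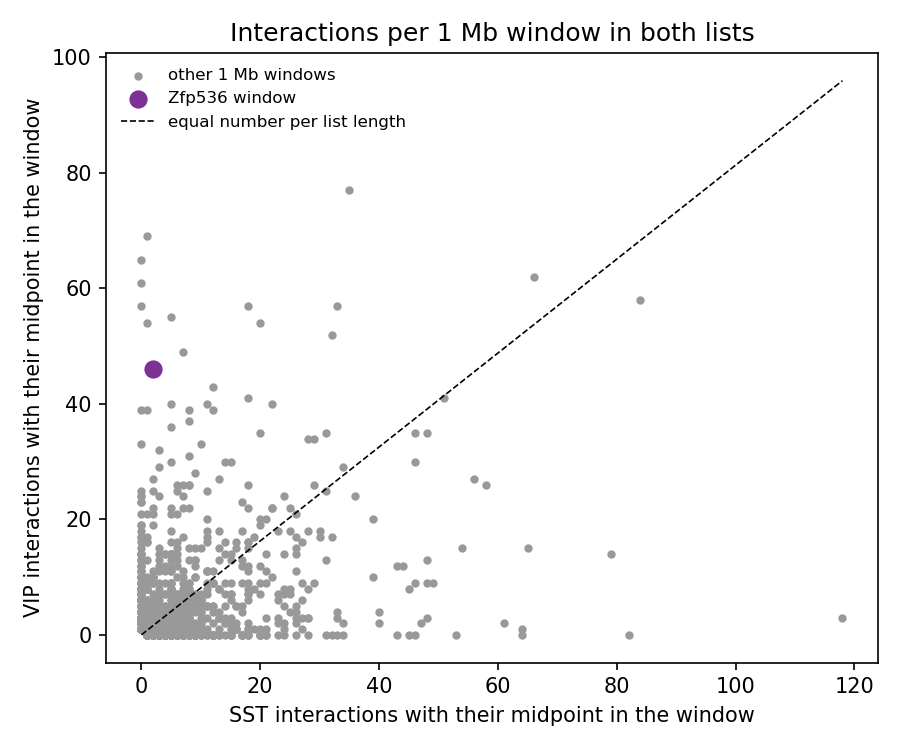
Number of SST (x axis) and VIP (y axis) interactions with their midpoint in each 1 Mb window of the genome, 1 point per window, with a dashed line at equal numbers per list length. The Zfp536 window, with 46 VIP and 2 SST interactions, lies far above the line.

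All 46 VIP interactions had both anchors inside the window and joined only 16 anchors, so they are not independent of each other. The anchors fell into 3 groups separated by gaps of more than 50 kb, a division made after seeing them. The downstream group had 5 anchors from 38142994 to 38305903, numbered 1 to 5 here in genomic order. The middle group had 3 anchors, 6 to 8, from 38615577 to 38722607, and the far group had 8 anchors, 9 to 16, from 38800924 to 38964539. The latter groups lie beyond the 5′ end of the gene, the nearest of their anchors by 55.6 kb.

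Most of the gene itself held no VIP anchor. Between the downstream and the middle group ran a stretch of 310 kb without an anchor, which covered 254 kb or 84.7% of the 300 kb gene interval, its 5′ end included. Anchor 5 (38244391 to 38305903) was the only VIP anchor to reach into the interval, covering 45.9 kb at its 3′ end. Through it 13 of 46 VIP interactions (28.3%) had an anchor in the gene interval, and the other 33 had none. No VIP interaction had an anchor within 20 kb of the 5′ end, whereas 2 of the 5 SST interactions had one. The listed VIP contacts therefore lay around Zfp536 and at its 3′ end rather than at its 5′ end. The mm9 position of the gene is used here to about 10 kb only.

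**Figure D2:**
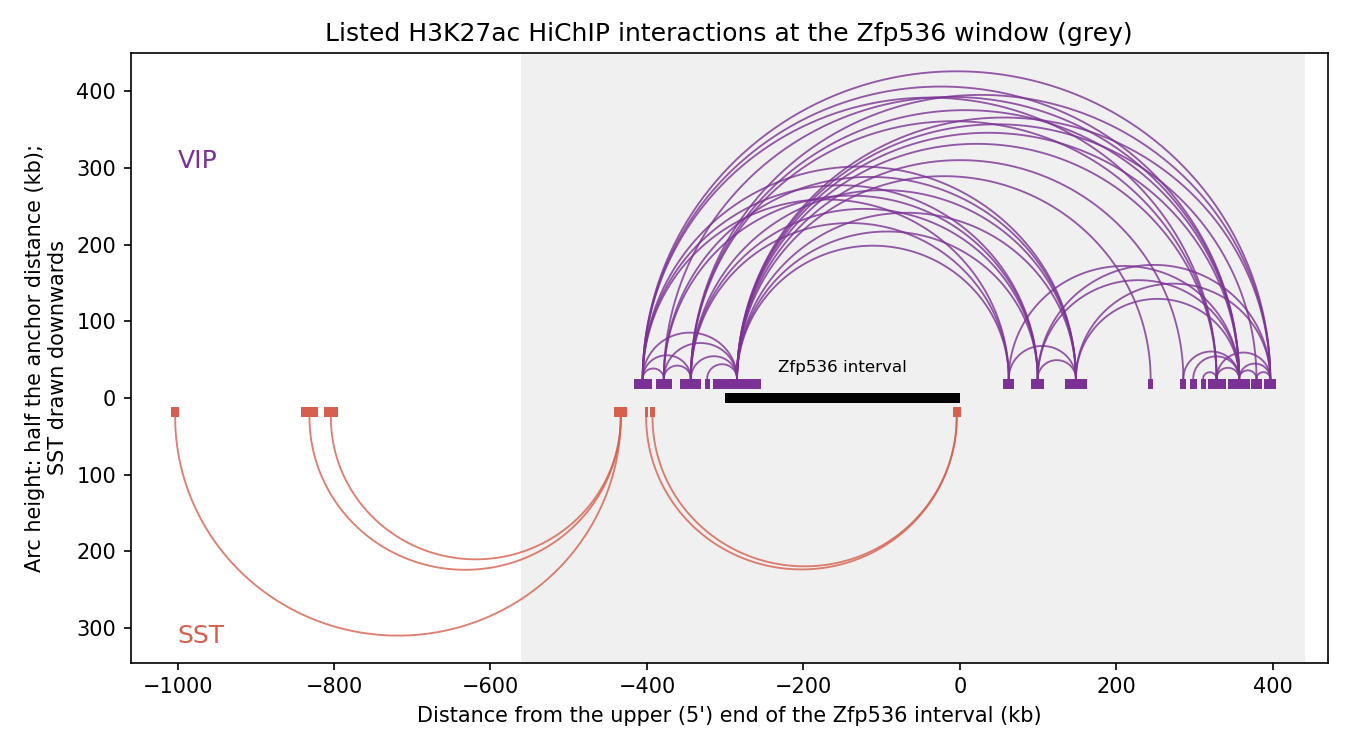
Listed interactions at the locus drawn as arcs between anchor midpoints, VIP upwards in purple and SST downwards in red, with boxes for the anchors and a black bar for the Zfp536 interval. The x axis is the distance in kb from the 5′ end of the interval, and arc height grows with the anchor distance. The VIP arcs join the downstream group to 2 groups beyond the 5′ end, with no VIP anchor over 254 kb of the gene, and only SST has an anchor at the 5′ end.

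Of the 46 VIP interactions, 24 (52.2%) crossed the gene, joining the downstream group to the middle group in 11 cases and to the far group in 13. The 11 interactions with the middle group were 11 of 15 possible pairs (73.3%) and spanned 347 to 554 kb, with a median of 468 kb. The 13 with the far group were 13 of 40 possible pairs (32.5%) and spanned 529 to 802 kb, with a median of 682 kb. The longest joined anchor 1 (38142994 to 38166114) to anchor 16 (38949169 to 38964539), near the opposite edges of the locus.

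The remaining 22 VIP interactions stayed on 1 side of the gene. Within the downstream group 7 of 10 pairs were linked, at a median of 59.1 kb and up to 121 kb, and within the middle group 2 of 3. The far group had 8 of 28 pairs linked (28.6%), over 17.3 to 71.3 kb, and 5 of 24 pairs (20.8%) joined it to the middle group. The shortest VIP interaction, of 17.3 kb, joined anchors 12 (38867678 to 38874191) and 13 (38876772 to 38899646) in the far group. Among the 3 groups the far group had the lowest share of linked pairs within it, and it holds 5 anchors with 3 or fewer links, of which 9, 11 and 12 had 1 each.

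Anchor 5, at the 3′ end of the gene, had the most links, 13 of the 15 possible: 4 within the downstream group, 3 to the middle and 6 to the far group. In the whole VIP list 1.92% of anchors had as many. Anchor 14 (38903310 to 38930779), in the far group, followed with 12 links, which 2.62% of anchors reached, 4 of them to the downstream and 3 to the middle group. These anchors together took part in 24 of the 46 interactions (52.2%), so that 22 would remain without both.

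Anchors 1 and 3 (38202433 to 38229743) had 9 links each, 3 to each group. Anchors 8 (38694181 to 38722607) and 16 had 8 each, and anchor 7 (38651231 to 38667867) had 7. Anchors 2 (38171092 to 38192057) and 13 had 6 each, anchor 6 (38615577 to 38629484) had 5, and anchor 15 (38931822 to 38946644) had 3. The other 5 anchors had 1 or 2 links; in the whole list 51.8% of anchors had 2 or more and 33.5% had 3 or more.

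The 11 anchors with 3 or more links were joined by 40 of their 55 possible pairs (72.7%). Among them were 2 sets of 7 anchors in which every pair was linked: anchors 1, 2, 3, 5, 7, 8 and 14, and the same set with 16 in place of 2. Both sets draw on all 3 groups. A set of this kind lists pairs over a population of nuclei and does not show that its anchors meet at the same time in 1 nucleus.

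**Figure D3:**
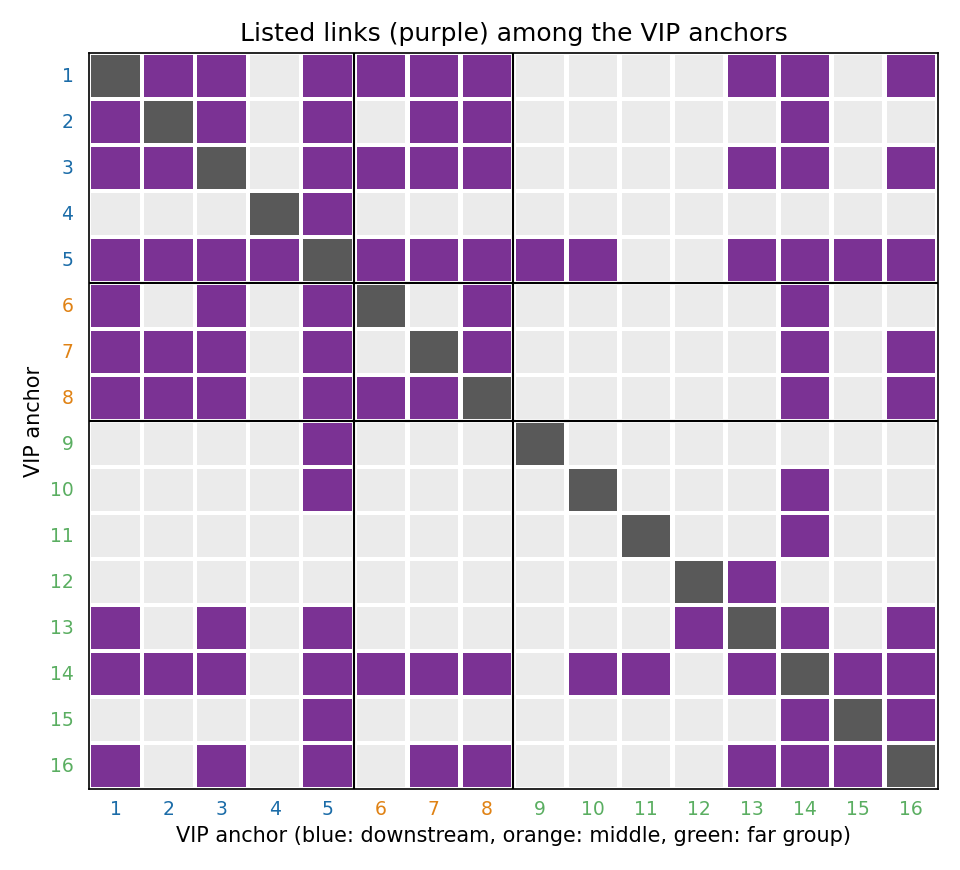
Matrix of the 16 VIP anchors in genomic order, with listed links in purple, unlinked pairs in light grey and black lines between the 3 groups. The 11 anchors with 3 or more links hold 40 of the 46 links, and anchors 5 and 14 have the fullest rows.

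Anchor width moved with the number of links. The 16 anchors ranged from 5.94 to 61.5 kb with a median of 16.0 kb, against 12.4 kb over the VIP list, and anchor 5 was the widest. Anchors with 3 or more links had a median width of 22.9 kb and those with 1 or 2 links 6.51 kb. Pearson's r between width and links was 0.85 and Spearman's rho was 0.93 over the 16 anchors, which share their links and are not replicates. The part of width in the number of links was not tested. When anchors within 5 kb of each other were merged, 8 anchors and 17 distinct VIP interactions were left, 17 of 28 possible pairs (60.7%), and the ratio to SST was 5.20 with an interval of 1.70 to 21.2.

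**Figure D4:**
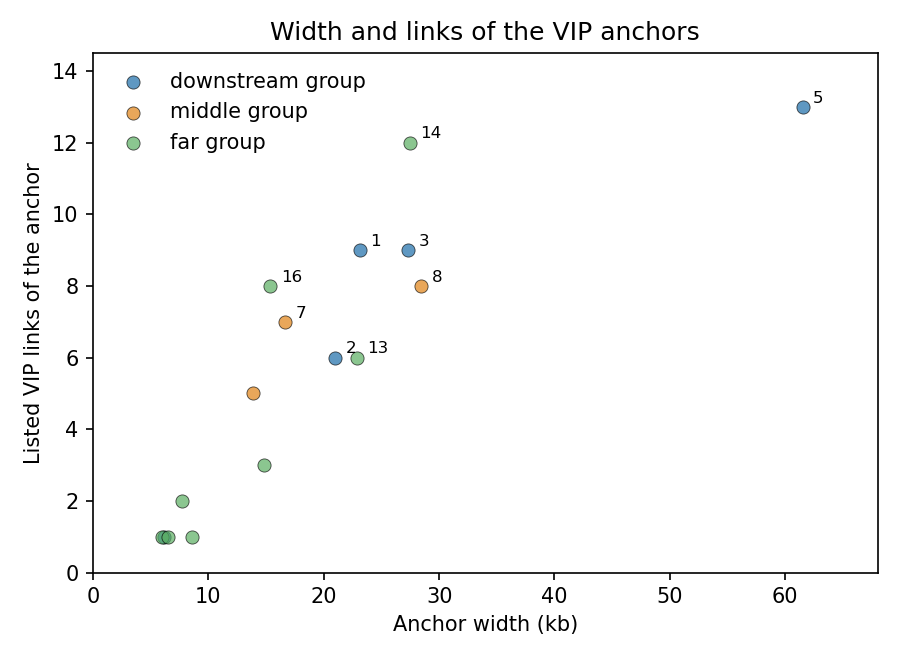
Width in kb (x axis) and number of listed VIP links (y axis) of the 16 VIP anchors, 1 point per anchor, coloured by group, with the anchors of 6 or more links numbered. Narrow anchors under 10 kb have 1 or 2 links, and the 61.5-kb anchor 5 has the most, 13.

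The VIP interactions of the locus were longer at the median than those of the VIP list, at 366 against 167 kb. Distances at the locus ranged from 17.3 to 802 kb. The order-statistic interval of their median, 93.6 to 505 kb, includes the list value. Interactions of more than 400 kb made up 22 of the 46 (47.8%), against 21.1% of the list. Those of up to 200 kb made up 17 (37.0%), against 53.2%.

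At short range the anchors of the locus were linked about as often as VIP anchors elsewhere, and at long range more often. Up to 50 kb, 9 of 18 pairs were linked (50%, exact interval 26.0 to 74.0%), against 47.8% over the list, and at 50 to 100 kb 7 of 19 (36.8%) against 33.5%. At 100 to 200 kb only 1 of 13 pairs was linked (7.69%, 0.195 to 36.0%, against 21.0%), and at 200 to 400 kb 7 of 18 (38.9%, against 24.9%). At 400 to 600 kb, however, 11 of 18 pairs were linked (61.1%, 35.7 to 82.7%), against 17.7% over the list. At 600 to 1000 kb 11 of 34 were linked (32.4%, 17.4 to 50.5%), against 7.30%. In this class the pairs of the locus reach 802 kb at most and those of the list run to 1000 kb. Distances within a class were not matched. These intervals cover counting error only and take pairs as independent, and the window was chosen for its number of interactions. The linked share by distance was not among the results laid down beforehand.

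**Figure D5:**
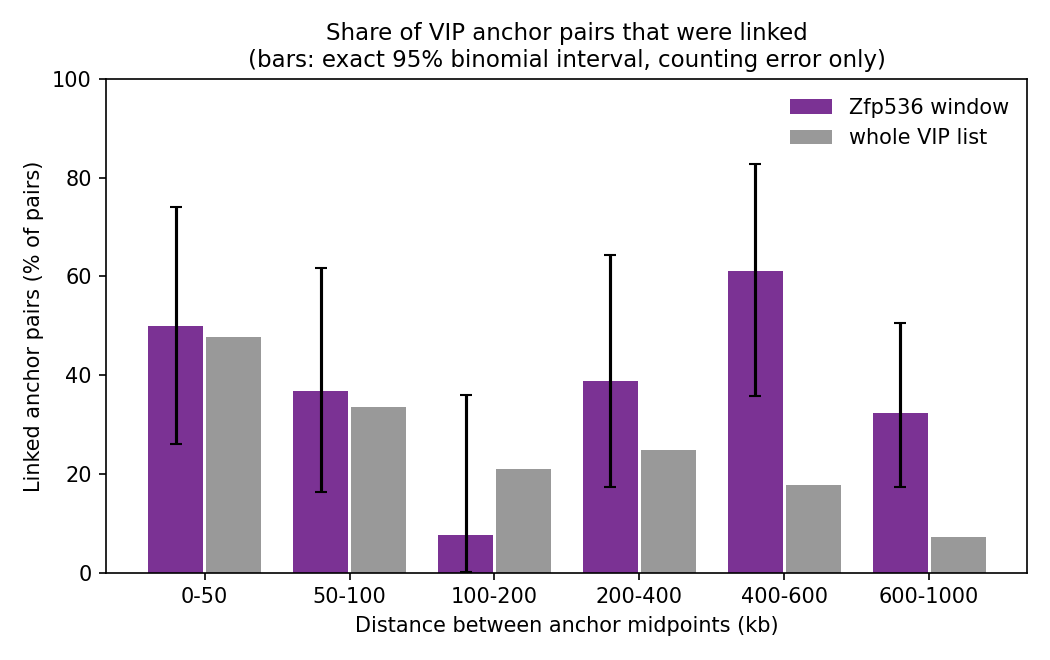
Share of anchor pairs linked in VIP (y axis, percent) by distance class (x axis, kb), at the Zfp536 window in purple with exact 95% binomial intervals and over the whole VIP list in grey. The bars lie close together up to 100 kb, and above 400 kb those of the locus are the higher ones, at 61.1% and 32.4% against 17.7% and 7.30%. In the last class the pairs of the locus reach only 802 kb.

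Over all pairs above 400 kb, 22 of 52 pairs at the locus were linked (42.3%, 28.7 to 56.8%), against 11.3% of 12595 pairs over the list. Here too the list pairs run to 1000 kb and those of the locus to 802 kb at most, so the distances are unlike. With both anchors at least 15 kb wide, a setting chosen later, with the data in view, the values were 17 of 19 (89.5%, 66.9 to 98.7%) and 34.1% of 1562. With anchors within 5 kb merged they were 9 of 11 (81.8%) and 14.8%. Wide anchors were linked more often than all anchors in the locus and in the list alike, and the part of width in the long-range links was not tested.

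The SST list showed a different and sparser pattern. An SST anchor at 38551139 to 38560875, across the 5′ end of the gene interval, was joined to anchors at 38157064 to 38160905 and 38163959 to 38170218, over 397 and 389 kb. Both partners overlap VIP anchor 1 downstream of the gene, but VIP anchor 1 had no listed contact with the 5′ end. The remaining 3 SST interactions ran from an anchor at 38118075 to 38135080, 7.91 kb below VIP anchor 1, away from the gene to anchors at 37552183 to 37561632, 37717450 to 37739722 and 37746627 to 37765209, over 371 to 570 kb. No SST anchor lay in the middle or the far group.

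None of the 46 VIP interactions had a counterpart in SST, that is, an interaction in which both anchors overlap by 1 bp or more. The exact interval for 0 of 46 runs up to 7.71%, and over the VIP list 25.8% of interactions had a counterpart. Of the 16 VIP anchors 1 (6.25%, exact interval 0.158 to 30.2%) overlapped an SST anchor, namely anchor 1, against 43.5% over the list. None of the 5 SST interactions had a VIP counterpart, against 21.4% over the SST list, where the exact interval for 0 of 5 runs up to 52.2%. For 2 of the 7 SST anchors there was an overlapping VIP anchor, against 36.9% of all SST anchors. These shares come from the contrast that chose the window and support nothing by themselves. Sequencing depth is unknown, and a contact not listed for a cell type may still exist there below the calling threshold.

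The neighbouring windows, whose other interactions the choice of members did not use, held too few interactions for a comparison. From 37 to 38 Mb the VIP list had no interaction and the SST list had 1 beside the members, which joined 2 of the 3 SST anchors named there. From 39 to 40 Mb neither list had any. The 3 SST members that reach into this window were not counted in it. A count of 0 has an upper Poisson limit of 3.69, so whether the difference between the lists goes on beyond the members cannot be told from these counts.

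In the VIP list as analysed here the members lay far from other anchors of their chromosome; whether the list is complete there is not known, which bears on the gaps that follow. The nearest VIP anchors on chromosome 7 ended at 28052799, 10.1 Mb below anchor 1, and began at 51632579, 12.7 Mb above anchor 16. The median gap between neighbouring anchors on the autosomes was 28.6 kb, and 39 of 4816 gaps exceeded 10 Mb. In the SST list the nearest other anchors lay 6.64 Mb below and 8.93 Mb above the members.

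The protein-coding neighbours of Zfp536 in RefSeq gene order (GRCm38.p6) are Tshz3, Gm36722 and Zfp507 on the downstream side and Uri1, Ccne1 and 1600014C10Rik on the side of its 5′ end. Tshz3 encodes a teashirt-type zinc finger transcription factor, Uri1 a chaperone-like protein of the prefoldin family and Ccne1 the cell cycle regulator cyclin E1. An mm9 annotation was not used here, so which anchors of the middle and far groups lie at these genes was not analysed here.

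The locus was set beside the next window in rank by the difference per 1000 and the window of chromosome 7 with the largest difference, both richer in VIP. Of these 3 windows, the locus had the fewest anchors and, with only members counted as links, the highest share of linked pairs. That share leaves out listed links between anchors that both lie outside a window. Such links occur on chromosome 8 but not at the locus, so the shares over all pairs are not fully alike. On chromosome 8 from 16 to 17 Mb the same rule gave 60 VIP and 7 SST interactions, with 22 VIP anchors, 26.0% of their pairs linked and a median distance of 369 kb. On chromosome 7 from 118 to 119 Mb it gave 60 VIP and 0 SST interactions, with 23 VIP anchors, 23.7% of pairs linked and a median of 293 kb. At the Zfp536 window 46 of 120 pairs were linked (38.3%). Linked shares above 400 kb, unlike those just given, count all listed links between the anchors, members or not. They were 42.3% at the Zfp536 window, 30.8% (21.5 to 41.3%) on chromosome 8 and 20.6% (13.1 to 30.0%) on chromosome 7 from 118 to 119 Mb. The interval of the locus, 28.7 to 56.8%, overlaps both. With both anchors at least 15 kb wide the share was 89.5% at the Zfp536 window, 73.9% (51.6 to 89.8%) on chromosome 8 and 35.7% (12.8 to 64.9%) on chromosome 7 from 118 to 119 Mb, where the interval lies below that of the locus. With anchors within 5 kb merged it was 81.8% (48.2 to 97.7%), 36.1% (24.2 to 49.4%) and 16.4% (8.15 to 28.1%), and again only the interval on chromosome 8 overlaps that of the locus. Both compared windows were also above the whole VIP list in these 3 settings, in which distances above 400 kb were not matched. The window on chromosome 7 from 118 to 119 Mb was so by little for wide anchors, at 35.7 against 34.1%, and after merging, at 16.4 against 14.8%. All 3 windows had a long anchor-free stretch within their VIP anchors, of 310, 395 and 346 kb. The intervals above take pairs as independent although pairs share anchors, and the wide-anchor and merged settings were chosen with the data in view. The linked share above 400 kb was itself not among the results laid down beforehand. Whether intervals overlap is therefore a description only. With 1 list per cell type these differences between loci were not tested.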

How the data were processed

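The deposited lists hold, in 6 columns without a header, the chromosome, start and end of the paired anchors of each interaction, and no score, count or p-value. HiC-Pro and build mm9 are named, without version or role, in the submitters' processing notes. Calling, its threshold and any pooling are steps not given in the sources used here. An interaction list for replicate 2 of either cell type was not analysed here. Per the labels' protocols, chromatin was cut with MboI. The deposited coordinates are printed as listed; a start may differ by 1 bp.

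Scripts found the members by overlap, measured distances between anchor midpoints, and counted a pair of anchors as linked when listed. Regions were named by rule: every SST member, VIP anchors with 3 or more links, and the shortest and longest VIP member. The members, the compared windows, the motifs and the lists were chosen with earlier results of these data known. Intervals at 95% are exact Poisson or binomial (Clopper-Pearson), or order-statistic for the median, and cover counting error only. Promoters came from RefSeq (GRCm38.p6). The overlap step was tested on simulated lists. Alternatives covered how members are counted, how anchors match and how they are merged. Tools were networkx 3.6.1 and scipy 1.17.1 with pandas 2.3.3, matplotlib 3.10.9 and numpy 2.4.6 under Python 3.11.15.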

Additional observations from a re-analysis of the deposited data

How the results depend on the processing

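The VIP list stayed the richer one under every setting tried. These settings recount the same locus, which was chosen for being richer in VIP, so their outcome is not separate support. The ratio per 1000 was 11.3 as reported. With both anchors or with the midpoint in the window it was 28.3, from 46 VIP and 2 SST interactions (7.40 to 240). For the gene interval alone it was 7.99, from 13 and 2 (1.81 to 72.9), all 13 through anchor 5. It was 9.43 with the window widened by 500 kb on each side and 5.20 with anchors within 5 kb merged. Among interactions of up to 200 kb it was 6.97 when 3 counts were put in for the 0 in SST against 17 in VIP. The exact interval there has a lower limit of 5.07 and no upper limit, and the value is set by the smaller count. No VIP interaction of the locus had an SST counterpart with identical anchors, with an overlap of at least 50% or with anchors within 10 kb. VIP anchors with an SST counterpart were 12.5% with anchors within 10 kb and 0 with identical anchors, as fewer anchors meet a stricter match. The median distance was 395 kb without interactions under 20 kb and 328 kb between inner edges. The highest number of links was 7 with anchors within 5 kb merged, where only 8 anchors remain. The linked share above 400 kb, not among the results laid down beforehand, was 89.5% for anchors at least 15 kb wide and 81.8% after merging. Both settings were chosen after seeing the data, and the cause was not tested. Counts in the neighbouring windows were the same at 500 kb. No paired analysis was possible because the lists give nothing for separate replicates, and for the same reason none could be dropped in turn.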
